A study of Homo sapiens with 20 samples.

Results

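The regions described here were the accessible sites called as peaks only in SW872 cells that carried TAZ-CAMTA1. Overlapping peaks of 7 peak lists, 1 for each vector, were merged wherever they shared 1 bp or more, and each merged site was given the lists that had a peak in it. A site was selected on the presence of a TAZ-CAMTA1 peak and the absence of a peak from the other 6 lists. Absence means that no peak was called in that list, not that the chromatin was closed there. This gave 34791 sites of 372133 merged sites, or 9.35% of all sites. Because the peak calls themselves chose these sites, their strength, width and absence elsewhere are given as descriptions without a test.

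SW872 is an established human liposarcoma cell line. Accessible DNA was tagged by Tn5 transposase, which inserts sequencing adapters where chromatin is open (ATAC-seq). The cells had been transduced with a retroviral vector, selected with G418 and kept as pooled stable lines, so that every group shared the infection and the drug selection and none was a clone. The groups were the empty vector (EV), TAZ4SA and YAP5SA (forms of TAZ and YAP whose LATS phosphorylation sites were changed to alanine), full-length CAMTA1, full-length TFE3, TAZ-CAMTA1 and YAP-TFE3. The library titles name the last construct Yap5SA-TFE3. The 20 libraries were 2 for TFE3 and 3 for each other group, and the third EV library was titled as a redo. The deposited file of each group was a single peak list, which leaves the values without replicate error, and reproducibility of the sites between libraries was not analysed here. Depth per library is not given in the sources used here.

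TAZ-CAMTA1 is the fusion protein that drives most cases of epithelioid hemangioendothelioma, a vascular sarcoma. It joins the N terminus of TAZ, including the part that binds TEAD transcription factors, to the C terminus of CAMTA1, a DNA-binding transcription regulator, and it stays in the nucleus when the Hippo pathway kinases would hold TAZ in the cytoplasm. TAZ and YAP act mostly at enhancers, short regulatory stretches that are accessible to transposase when proteins displace nucleosomes from them. An ATAC-seq peak marks such an opening but does not show which protein bound there.

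Sites found only with TAZ-CAMTA1 held 14.7% of the 236893 peaks of the TAZ-CAMTA1 list (95% Wilson interval 14.5% to 14.8%). They covered 4073793 of the 113741751 bases under TAZ-CAMTA1 peaks, or 3.58%. The intervals here and below treat peaks as independent counts and cover counting error only. Of the 7 lists, YAP5SA had the largest share of peaks in single-list sites, with 39242 sites and 17.0% of its peaks. TAZ-CAMTA1 followed, and then YAP-TFE3 with 30025 sites and 12.7%, TAZ4SA with 18298 and 12.0%, CAMTA1 with 21038 and 9.41%, EV with 12398 and 7.25%, and TFE3 with 1522 and 0.973%. The lists differed in length, from 152702 peaks for TAZ4SA to 236893 for TAZ-CAMTA1, the longest. When each list was shortened to its 152702 peaks with the largest summit −log10 p and merged anew, there were 13835 TAZ-CAMTA1-only sites. They held 9.06% of the peaks (8.92% to 9.21%). These were not a subset of the 34791 sites, of which only 9762 had a summit −log10 p of 4 or more. Some were sites whose weaker peaks of other lists had been cut. The order then changed: TAZ4SA had 15.8% of its peaks in single-list sites, YAP5SA 11.9%, EV 9.25%, YAP-TFE3 8.15%, CAMTA1 6.01% and TFE3 2.72%. Equal numbers meant unequal cutoffs, here and below. The lowest summit −log10 p kept was 3.38 for TAZ4SA, which lost no peak, 3.53 for TFE3 and 3.81 for EV. It was 4.16 for CAMTA1, 4.17 for TAZ-CAMTA1, 4.24 for YAP5SA and 4.28 for YAP-TFE3. The shorter lists thus kept weaker peaks than the longer ones. The place of TAZ-CAMTA1 as second among the lists therefore depended on using every peak.

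Most sites with a TAZ-CAMTA1 peak had a peak with other vectors too. Single-list sites were 16.4% of the sites with a TAZ-CAMTA1 peak, and 28.5% of those sites (60372) had a peak in all 7 lists. A further 28416 sites had a peak of exactly 1 other list. That other list was YAP-TFE3, the second fusion, in 11730 of them (41.3%) and CAMTA1, whose C terminus the fusion carries, in 7060 (24.8%). YAP5SA was the partner in 4702, EV in 2802, TFE3 in 1163 and TAZ4SA, the activated form of unfused TAZ, in 959. Per 100000 peaks of the partner list the 2 leading lists were again these, with 4975 for YAP-TFE3 and 3157 for CAMTA1. The rate was 2036.5 for YAP5SA, 1638 for EV, 744 for TFE3 and 628 for TAZ4SA. The lists with the lowest rates, TAZ4SA, TFE3 and EV, were also the shortest, so the rate may not remove list length. The TAZ-CAMTA1 peaks with 1 partner were somewhat stronger than those with no partner, whichever the partner was. Their median summit −log10 p ran from 3.79 (TAZ4SA) to 4.03 (TFE3), against 3.77 with no partner. It was 3.95 with YAP-TFE3, 3.94 with CAMTA1 and 3.93 with EV. The share that reached 5 was 7.70% with YAP-TFE3, 6.71% with EV, 10.7% with TFE3 and 1.98% with TAZ4SA, against 1.73% with no partner.

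The single-list sites were weak, short peaks. Strength was given by 2 columns of the lists. One was the −log10 p at the summit, the position with the strongest signal, and the other was the area under the caller's significance curve over the peak, which grows with both height and width. The median summit −log10 p was 3.77, the quartiles were 3.58 and 4.05, and the strongest reached 7.58. The median area was 39.3, with quartiles of 27.5 and 61.4 and a maximum of 1080. No peak of any list had an area under 20, so many sites lay close to the lowest value that was reported. The median width was 96 bp, with quartiles of 81 and 121 bp and a range from 35 to 878 bp. The other TAZ-CAMTA1 peaks had a median summit −log10 p of 5.07, a median area of 205 and a median width of 254 bp. A value of −log10 p depends on depth as well as on accessibility, so values are compared here mainly within the TAZ-CAMTA1 list.

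**Figure D1:**
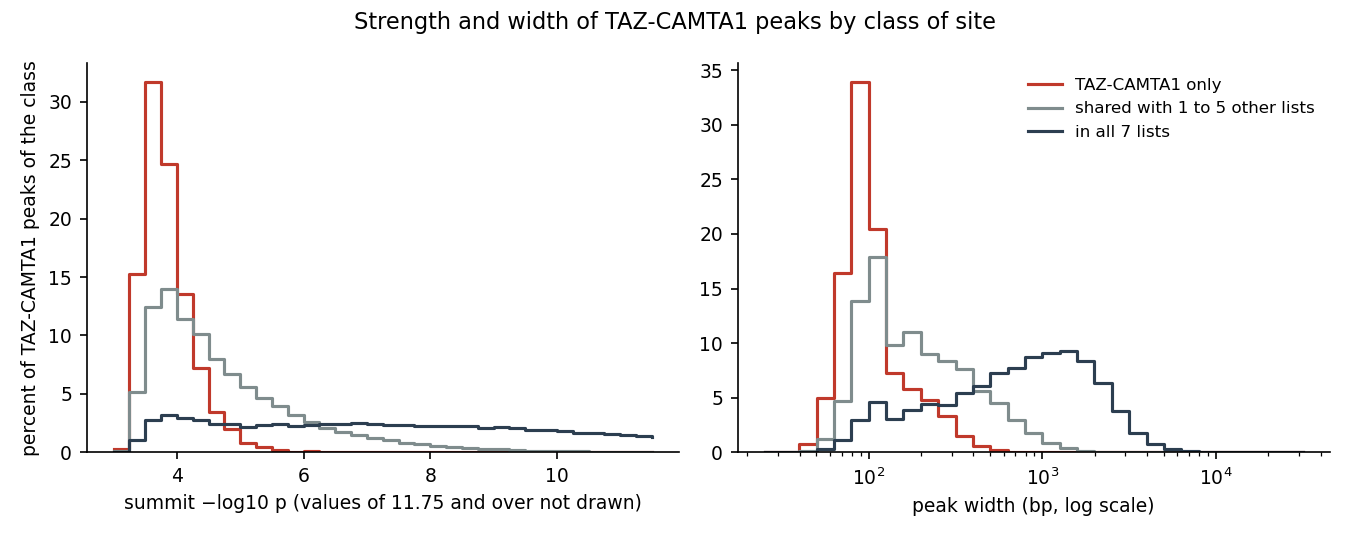
Distribution of summit −log10 p (left) and peak width in bp on a log scale (right) for TAZ-CAMTA1 peaks in sites found only with TAZ-CAMTA1 (red), in sites shared with 1 to 5 other lists (grey) and in sites of all 7 lists (dark blue); each line gives the percent of the class in each bin. The red lines peak at the left of both panels, around the medians of 3.77 and 96 bp, where the peaks common to all lists are few.

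Strength and width rose together with the number of lists that held the site. The median summit −log10 p of the TAZ-CAMTA1 peak was 3.77 in single-list sites, 3.93 with 1 further list, 4.13 with 3 lists in all, 4.43 with 4, 4.90 with 5, 5.69 with 6 and 8.45 with all 7. The median width went from 96 bp in single-list sites to 768 bp in sites of all 7 lists, and the median area from 39.3 to 1320. A wide peak has more room to meet a peak of another list under the merging rule, so the rule itself sets part of this order.

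Read the other way, the share of TAZ-CAMTA1 peaks that fell in single-list sites dropped with strength. It was 42.2% of the peaks with a summit −log10 p from 3 to 3.5 (41.4% to 43.1%), 34.3% from 3.5 to 4, 18.8% from 4 to 4.5 and 7.98% from 4.5 to 5. It was 1.87% from 5 to 6 and 0.170% from 6 to 8, and none of the 45347 peaks at 8 or above was in a single-list site, whereas 91.9% of those were in sites of all 7 lists. By width, 47.7% of the peaks under 75 bp were in single-list sites, 19.7% of those from 100 to 150 bp, 4.68% of those from 250 to 500 bp and none of the 32589 of 1000 bp or more.

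**Figure D2:**
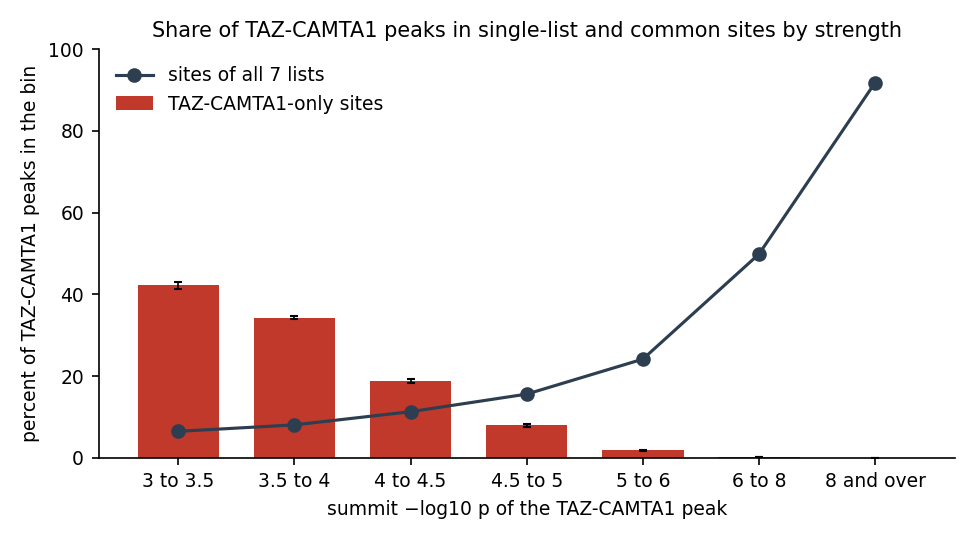
Percent of the TAZ-CAMTA1 peaks in each range of summit −log10 p that lay in TAZ-CAMTA1-only sites (red bars, with 95% Wilson intervals) and in sites of all 7 lists (dark line). The bars fall from 42.2% in the weakest range to 0 in the strongest, while the line climbs to 91.9%.

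A small group of sites stood above this weak majority. Of the 34791 sites, 9762 (28.1%) had a summit −log10 p of 4 or more, 602 (1.73%) of 5 or more, 50 (0.144%) of 6 or more and 2 of 7 or more. The share at 5 or more was 9.23% among YAP5SA-only sites, 4.61% among YAP-TFE3-only sites, 4.17% among TAZ4SA-only sites, 1.45% among CAMTA1-only sites and 0.992% among EV-only sites. None of the 1522 TFE3-only sites reached 5. The strongest single-list sites of YAP5SA, YAP-TFE3, TAZ4SA and CAMTA1 reached summit −log10 p of 10.8, 9.86, 8.69 and 7.74, all above the 7.58 of the strongest TAZ-CAMTA1-only site. The lists may differ in depth, which was not available. The 602 sites had a median width of 178 bp and a median area of 187. They lay farther from peaks of other lists than the rest: 59.8% had a site of another list within 1 kb, against 71.7% to 73.8% in the 3 weaker ranges. Their median distance to a site of all 7 lists was 5790 bp, against 4103 to 4507 bp. Wide peaks close to a peak of another list tend to overlap it and be left out, so the merging rule can set part of this. Over 34789 sites, strength and distance to a site of another list were almost unrelated (Spearman rho −0.0052).

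The 10 sites with the largest area had areas from 525 to 1080, and the next site had 514. Genes near them were not analysed here, since the annotation at hand was of another genome build. The largest was chr11:113064457-113065288 (hg19), 832 bp wide, with an area of 1080 and a summit −log10 p of 7.58, the highest by either measure. Even so, 49953 peaks of the TAZ-CAMTA1 list had a summit at least as strong, which put it at the percentile 78.9. No other list had a peak closer than 7840 bp, and the nearest site of all 7 lists was 16377 bp away. The second was chr16:65901085-65901833, with an area of 806 and a summit −log10 p of 6.36, 8403 bp from the nearest peak of another list. The third, chr14:95655859-95656416, had an area of 742 and was the most isolated of the 10, with no TAZ-CAMTA1 peak and no peak of any other list within 10 kb. Its nearest peak of another list was a YAP5SA peak 30540 bp away.

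Among the next sites, chr8:98323954-98324606 (area 610), chr18:57145717-57146229 (area 589) and chr9:118121402-118121997 (area 585) were likewise 12245, 5404 and 4947 bp from the nearest peak of another list. The sites chr5:58617836-58618414 (area 663) and chr14:22953648-22953976 (area 525) were of another kind. They lay 157 and 271 bp from a site with a peak of another list, and the second of them had 10 further TAZ-CAMTA1 peaks within 10 kb. The remaining 2 were chr11:19242858-19243359 (area 593), 102 bp from another TAZ-CAMTA1 peak, and chr5:158281463-158281840 (area 555). The latter had the second highest summit −log10 p, 7.04. Of the 5 strongest by summit, the 3 not yet named were chr8:99793827-99793976, chr6:14792388-14792641 and chr1:206130635-206130778, with summit −log10 p of 6.92, 6.83 and 6.81 and widths of 150, 254 and 144 bp. The first of these stood 15359 bp from the nearest peak of another list, and the second 334 bp.

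The sites lay close to chromatin that was open with every vector. Their median distance to the nearest site of all 7 lists was 4260 bp (95% order-statistic interval 4148 to 4364 bp, quartiles 834 and 13497 bp). Of the sites with such a neighbour on their chromosome, 27.1% had it within 1 kb, 53.4% within 5 kb, 82.5% within 20 kb and 94.7% within 50 kb. The median distance was 4718 bp for CAMTA1-only sites, 6365 bp for EV-only, 7394 bp for YAP-TFE3-only, 7456 bp for YAP5SA-only and 9766 bp for TAZ4SA-only sites. TFE3-only sites, of which there were 1522, had a median of 4929 bp (4261 to 5727 bp). The TAZ-CAMTA1, CAMTA1 and TFE3 lists thus had shorter median distances than the EV, TAZ4SA, YAP5SA and YAP-TFE3 lists. With equal numbers of peaks in every list the medians were 4659 bp for CAMTA1, 4764 bp for TFE3, 4790 bp for TAZ-CAMTA1 and 6256 to 9927 bp for the other 4 lists.

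**Figure D3:**
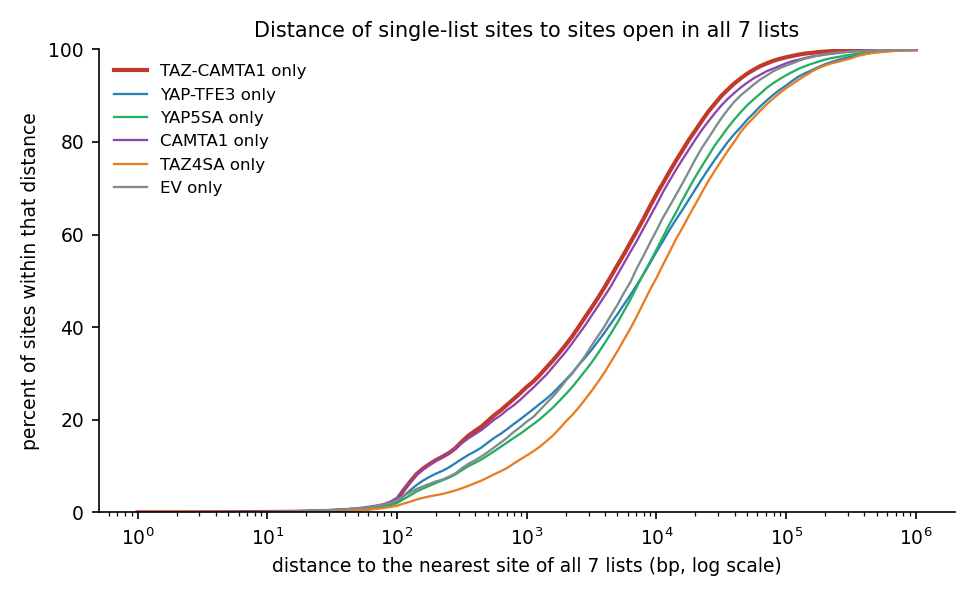
Percent of single-list sites that lay within a given distance (bp, log scale) of the nearest site of all 7 lists, with 1 line for each of 6 lists. The TAZ-CAMTA1 line (thick red) runs close to the CAMTA1 line and above those of YAP-TFE3, YAP5SA, EV and TAZ4SA over most of the range, with 27.1% of its sites within 1 kb and 82.5% within 20 kb.

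Peaks of the other lists were mostly near, though they did not overlap. The nearest site that held a peak of another list was at a median of 301 bp, and 72.7% of the TAZ-CAMTA1-only sites had one within 1 kb. The corresponding values were 292 bp and 72.8% for CAMTA1-only sites, 432 bp and 63.2% for YAP-TFE3-only sites and 570 bp and 59.4% for YAP5SA-only sites. They were 193 bp and 78.8% for TFE3-only, 345 bp and 72.0% for EV-only and 848 bp and 52.9% for TAZ4SA-only sites. Of these nearest sites, 69.0% also held a TAZ-CAMTA1 peak, 66.1% a YAP-TFE3 peak, 62.6% a CAMTA1 peak, 54.8% a YAP5SA peak, 46.7% an EV peak, 44.5% a TFE3 peak and 32.4% a TAZ4SA peak. A site of all 7 lists was the nearest in 23.0%, and a site held by 1 other list alone in 25.1%. Longer lists offer more neighbours, so the shares follow list length in part.

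Many of the sites had a TAZ-CAMTA1 peak of a shared site beside them. The nearest such peak was at a median of 505 bp, and 61.5% of the TAZ-CAMTA1-only sites had one within 1 kb. It lay within 1 kb on both sides of 4358 sites (12.5%), on 1 side of 17046 (49.0%) and on neither side of 13387 (38.5%). Such nearness was not particular to the TAZ-CAMTA1 list. The share of TAZ-CAMTA1-only sites with a peak of a given other list within 1 kb ran from 30.8% (TAZ4SA) to 57.7% (YAP-TFE3). Of the CAMTA1-only sites, 57.8% had a TAZ-CAMTA1 peak within 1 kb. The smallest gap between neighbouring TAZ-CAMTA1-only sites was 101 bp, as it was for the single-list sites of every other list but TFE3 (104 bp). At the edge of the rule, 22 sites touched a peak of another list without overlapping it, 219 had one within 10 bp and 1062 (3.05%) within 50 bp. Just inside sharing, 154 sites of TAZ-CAMTA1 and 1 other list overlapped by 10 bp or less. The median summit −log10 p of the TAZ-CAMTA1 peak was 3.81 in the 219 sites and 3.73 in the 154.

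The most distant sites were weak. The 3 farthest from a site of all 7 lists were chr1:190447432-190447508, chr4:137220142-137220209 and chr6:103369214-103369275, at 2061205, 1736620 and 1525134 bp, with widths of 77, 68 and 62 bp and summit −log10 p of 3.79, 3.28 and 3.75. The 3 nearest were chr6:43396682-43396943 and chr9:139549613-139549821, which touched a site of all 7 lists, and chr11:44597594-44597727, which was 1 bp away, with summit −log10 p of 4.08, 3.48 and 3.91. Over the 34789 sites with a distance, strength and distance were almost unrelated, with a Spearman rho of 0.0096. The sites share 1 peak list, and genomic neighbours are not independent points. The 9425 sites within 1 kb of a site of all 7 lists and the 6089 sites more than 20 kb away had nearly equal medians of summit −log10 p, 3.77 and 3.78, and of width, 96 and 95 bp.

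TAZ-CAMTA1-only sites often came in groups. A cluster was built from sets of 3 neighbouring sites that lay within 20 kb, and sets that shared a site were joined. A cluster could therefore be longer than 20 kb, up to 154318 bp. There were 3280 clusters that held 14365 sites, or 41.3% (40.8% to 41.8%), with a median span of 15919 bp. Of the clusters, 1591 (48.5%) had 3 sites, 703 had 4, and 109 had 10 or more, the last holding 1439 sites in all. The share of sites in clusters was 42.6% for YAP5SA-only, 35.5% for EV-only, 34.3% for TAZ4SA-only, 31.3% for YAP-TFE3-only, 22.7% for CAMTA1-only and 0.788% for TFE3-only sites. This share grows with the number of sites, so the nearest comparison in number was with YAP5SA (39242 sites) and YAP-TFE3 (30025). With equal numbers of peaks in every list the share was 15.4% for TAZ-CAMTA1. It was 41.1% for TAZ4SA, 39.9% for EV, 21.8% for YAP5SA, 13.4% for YAP-TFE3, 8.52% for CAMTA1 and 3.29% for TFE3. The numbers of single-list sites still differed, from 4160 for TFE3 to 24124 for TAZ4SA. EV, with 14124 sites, was nearest in number to TAZ-CAMTA1 and had the larger clustered share. The clustered share of TAZ-CAMTA1-only sites was thus lower with equal numbers of peaks, where the sites were also fewer, 13835 against 34791. Among the 34791 sites the share differed little by strength. It was 38.7% below a summit −log10 p of 3.5, 42.6% from 4 to 5 and 40.0% at 5 and over.

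The clusters held peaks of every list. Their spans summed to 59.6 Mb and held 18743 TAZ-CAMTA1 peaks besides the TAZ-CAMTA1-only sites, which was 315 per Mb, alongside 329 per Mb for YAP-TFE3, 327 for CAMTA1, 319 for YAP5SA, 267 for EV, 225 for TFE3 and 184 for TAZ4SA. These were 7.18% to 9.28% of each list. Sites in clusters were nearer to a site of all 7 lists than the others, with medians of 3378 and 5280 bp, and a larger share had a site of another list within 1 kb, 77.5% against 69.3%. In strength they were alike, with median summit −log10 p of 3.78 and 3.77 and median areas of 40.3 and 38.5. Wide sites were clustered more often, with 47.8% of the 2023 sites of 250 bp or more in clusters.

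The cluster with the most sites lay at chr16:49688699-49843016 and held 32 TAZ-CAMTA1-only sites in 154 kb. None was strong: the median summit −log10 p was 3.77 and the highest 4.97. The same span held 59 other TAZ-CAMTA1 peaks, 61 of YAP-TFE3, 59 of CAMTA1, 54 of YAP5SA, 39 of TFE3, 36 of EV and 11 of TAZ4SA, and 6 of its sites were open in all 7 lists. TAZ-CAMTA1 peaks covered 19.9% of the span, against 12.1% for YAP-TFE3, 10.2% for CAMTA1 and 5.96% for EV. The second cluster, at chr8:47088340-47167726, had 29 such sites in 79.4 kb. It held 27 other TAZ-CAMTA1 peaks, 34 of YAP-TFE3, 25 of EV, 23 of CAMTA1, 19 of YAP5SA, 9 of TFE3 and 8 of TAZ4SA, and 4 sites of all 7 lists. The third, at chr11:119698524-119816324, had 23 sites in 118 kb, among 47 other TAZ-CAMTA1 peaks and 34 to 55 peaks of each other list, with 12 sites of all 7 lists. The spans were picked for their TAZ-CAMTA1-only sites, and without those sites YAP-TFE3 had the most peaks in the first and second span and EV in the third.

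**Figure D4:**
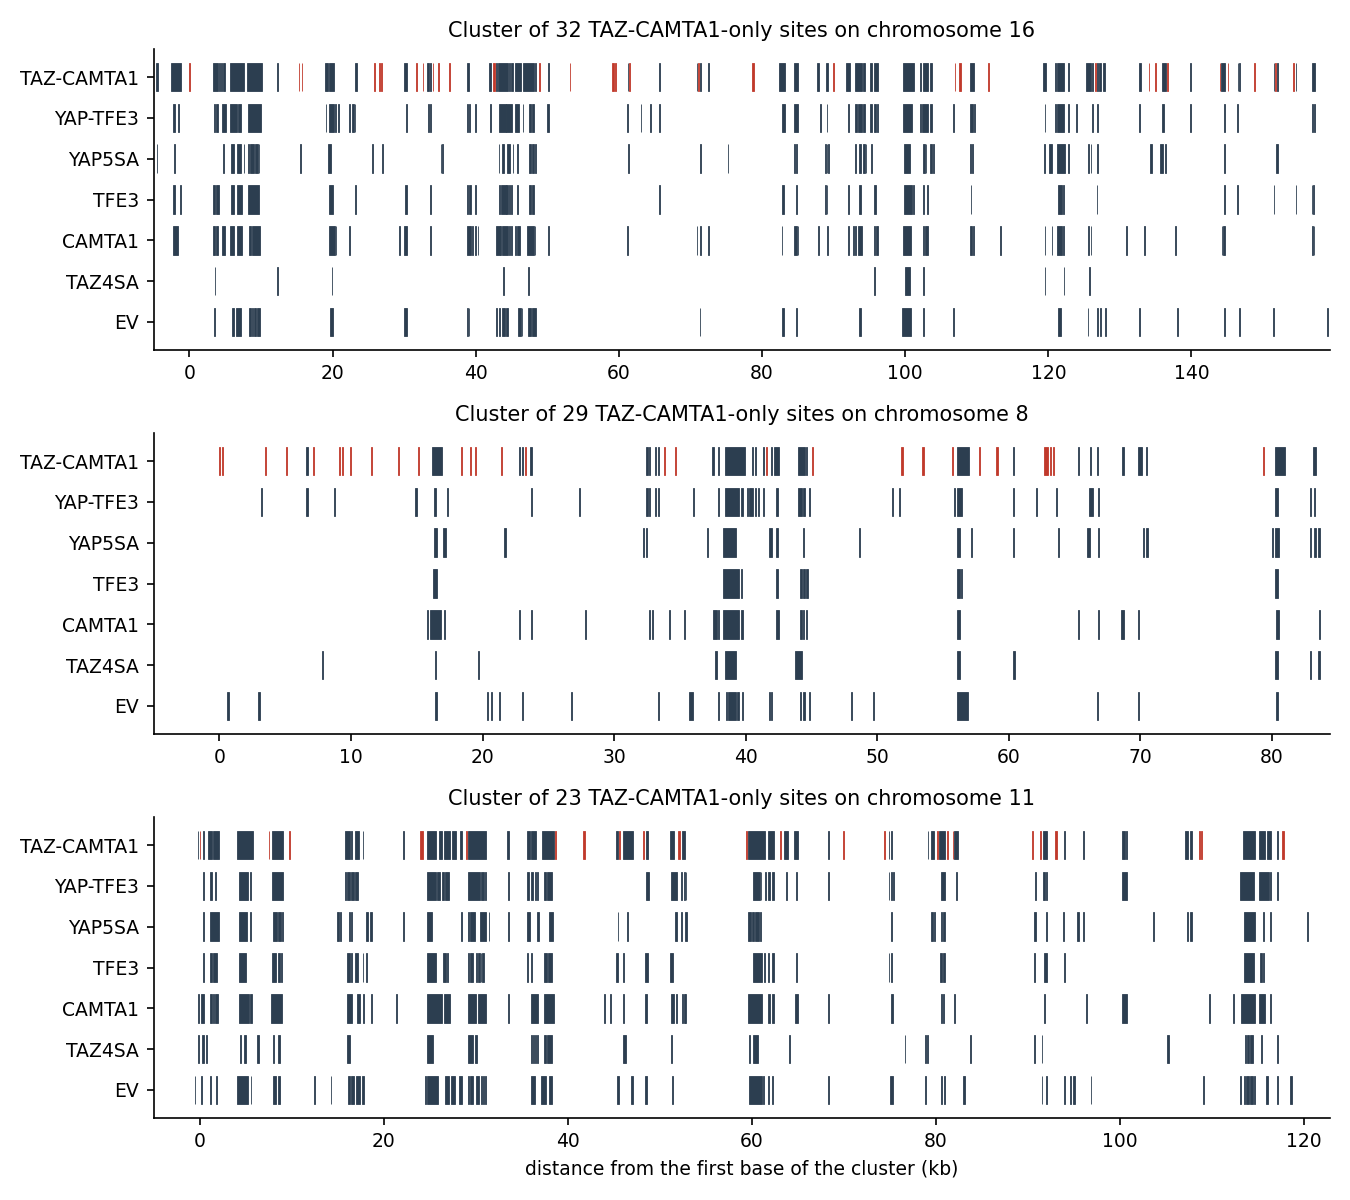
Peaks of the 7 lists in the 3 clusters with the most TAZ-CAMTA1-only sites, by distance in kb from the first base of the cluster; red marks are TAZ-CAMTA1-only sites and dark marks are all other peaks, drawn to scale with a thin outline. The 32, 29 and 23 red marks lie between and beside blocks of peaks that several lists share.

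By chromosome the sites followed the TAZ-CAMTA1 list as a whole. They were 12.1% of the TAZ-CAMTA1 peaks on chromosome 13 (11.3% to 12.9%), the lowest value among the 22 autosomes and X, and 16.8% on chromosome 22 (15.8% to 17.9%), the highest, a ratio of 1.39. Chromosomes 16 and 17 had 16.4% each and X had 12.6%. The same ratio was 1.41 for YAP-TFE3, 1.70 for CAMTA1, 2.62 for YAP5SA, 4.79 for TFE3, 7.77 for TAZ4SA and 11.9 for EV. The lowest share for TFE3, on chromosome 21, rested on only 5 sites, so its ratio is imprecise. Chromosome 13, where the TAZ-CAMTA1 share was lowest, had the highest share for EV (22.1%), TAZ4SA (27.1%) and YAP5SA (25.2%). With equal numbers of peaks in every list the ratio over the autosomes was 1.45 for TAZ-CAMTA1. It was 10.4 for EV, 7.01 for TAZ4SA, 2.64 for YAP5SA, 1.99 for TFE3, 1.88 for CAMTA1 and 1.72 for YAP-TFE3.

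**Figure D5:**
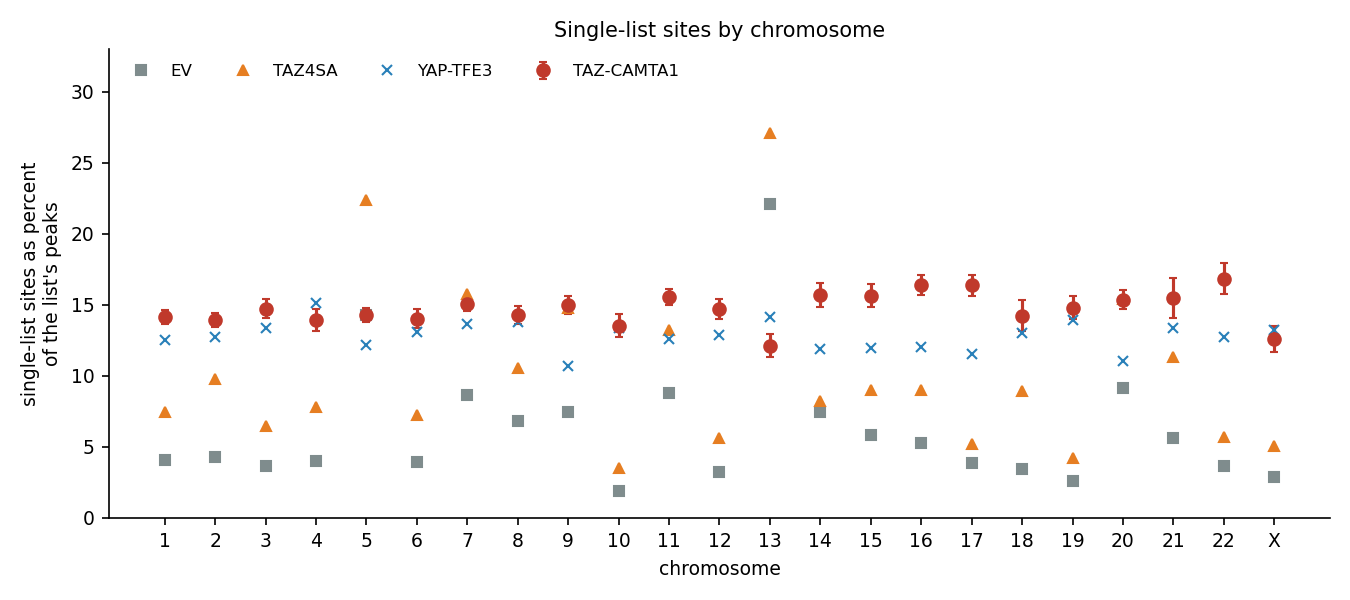
Single-list sites as a percent of the peaks of their own list on each autosome and X, for TAZ-CAMTA1 (red points, with 95% Wilson intervals), EV, TAZ4SA and YAP-TFE3. The red points stay between 12.1% and 16.8%, while EV and TAZ4SA rise to 22.1% and 27.1% on chromosome 13.

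In number, chromosome 5 had the most TAZ-CAMTA1-only sites (2971), followed by chromosomes 1 (2827) and 7 (2567). Clustering differed more between chromosomes than the share did. Of the sites on chromosome 20, 55.9% were in clusters, and on chromosomes 11 and 16 the shares were 53.0% and 48.4%, against 23.7% on chromosome 18, 25.6% on chromosome 10 and 26.3% on X. The median distance to a site of all 7 lists was 3625 bp on chromosome 20, 2985 bp on chromosome 11 and 4436 bp on chromosome 16, the last above the 4260 bp of all the sites. It was 7740 bp on chromosome 18, 8240 bp on chromosome 10 and 7540 bp on X. The median summit −log10 p stayed between 3.75 and 3.80 over the autosomes and X. Outside the autosomes and X there were 24 sites, of which 21 were on unplaced contigs.

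Along the genome, in 2805 bins of 1 Mb, the number of TAZ-CAMTA1-only sites followed the number of TAZ-CAMTA1 peaks in shared sites (Spearman rho 0.93 across bins) and the number of sites of all 7 lists (rho 0.89). Bins share the same libraries, mappability and base composition, so these values describe the maps and carry no test. Among single-list sites of the other vectors, rho was 0.83 for CAMTA1, 0.76 for YAP5SA, 0.73 for YAP-TFE3, 0.62 for EV, 0.50 for TAZ4SA and 0.48 for TFE3. The fullest bin, from 49 to 50 Mb on chromosome 16, held 84 TAZ-CAMTA1-only sites, the largest cluster among them. It had 27 CAMTA1-only, 23 YAP-TFE3-only, 17 YAP5SA-only, 13 EV-only and 8 TAZ4SA-only sites, and 27 sites of all 7 lists. The next, from 119 to 120 Mb on chromosome 11, held 82 beside 85 sites of all 7 lists and 59 YAP5SA-only sites.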

How the data were processed

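Per the study's methods, the authors trimmed adapters with NGmerge, aligned reads to hg19 with BWA-MEM and called peaks with Genrich in ATAC-seq mode, with duplicates removed and blacklisted regions, mitochondrial DNA and named contigs excluded. The methods describe peak calling on every replicate separately, whereas each vector has 1 deposited list. How that list was made from the libraries is not given in the sources used here, so whether its areas and p-values stand for 1 library or several is unknown. The coordinates fit that build, with a last chromosome 1 peak ending at 249240671. Each deposited list gives the area under the significance curve (a signal), −log10 of the p-value and of the q-value at the summit, and the summit position.

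Peaks were read, merged at an overlap of 1 bp or more and compared in Python 3.11.15 (pandas 2.3.3, numpy 2.4.6, scipy 1.17.1). Distances are gaps between edges. The merging, distances and clusters were tested on simulated data. Sites were named by a fixed rule: the 10 largest areas, the 5 strongest summits, the 3 fullest clusters, and the 3 sites nearest to and farthest from a site of all 7 lists. The members, lists and rules were chosen with earlier results of these data known. With 1 list per vector no test between vectors was made. Gene annotation and sequence were not used here, because the reference was of another build.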

Additional observations from a re-analysis of the deposited data

How the results depend on the processing

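No library could be left out, since the lists are not split by library. No paired analysis was possible because each list stands for a whole group. Of 57 recomputed values, 29 stayed within 1.5 times (counts) or within the interval (other values), and 28 moved. A minimum summit −log10 p of 4 in every list gave 18411 TAZ-CAMTA1-only sites and 11.0% of TAZ-CAMTA1 peaks, with a median area of 86.7, summit −log10 p of 4.31, width of 120 bp and distance of 5098 bp, and 1110 clusters with 22.9% of sites. Equal numbers of peaks gave 13835 sites, 9.06%, 102, 4.46, 130 bp, 4790 bp, 583 clusters and 15.4%, in the same order. Both raise the median strength by construction. Both also admit sites whose weaker peaks of other lists were dropped. Only 9762 of the 34791 sites had a summit −log10 p of 4 or more. Replacing each peak by its summit and 250 bp on either side gave 16059 sites, 7.29%, an area of 40.3, a summit −log10 p of 3.78, a distance of 6145 bp, 563 clusters and 12.0%. Merging across gaps of up to 100 bp gave 13.2% of peaks, 4564 bp and 37.2% in clusters. Clusters within 10 kb held 23.9% of sites and within 50 kb 68.9%. Autosomes alone, and merging of touching peaks (34769 sites, chosen after seeing the data), moved nothing. Without 1 of the other lists there were 35863 (TAZ4SA) to 48472 (YAP-TFE3) sites. Under the summit windows, 9 of the 10 sites named by area and all 5 named by summit stayed single-list, and chr14:22953648-22953976 did not. The other settings could not change the named sites. Their summits passed every cutoff, and dropping peaks, lists or chromosomes cannot add a peak of another list. They also lay more than 100 bp from any other peak, beyond the reach of the wider merging. The comparison of all 7 lists at equal numbers was also chosen after seeing the data.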
